A study of Mus musculus with 6 samples.

Results

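The solute carriers of the renal tubule were examined in primary cultures of mouse renal tubular epithelial cells (RTECs). A list of 44 genes was used, holding apical and basolateral carriers of the proximal and distal tubule for glucose, amino acids, phosphate, organic ions and salt, and all 44 symbols were found among the 46517 genes counted. RTECs came from kidneys of wild type FvB mice, whose age is 4 to 6 weeks in the sample labels and 3 to 5 weeks in the study's methods. All 6 cultures, those of both groups, were kept for 24 h in medium without serum. After this, 3 cultures of the TGF-β1 group received 50 ng/ml of the cytokine for 24 h, and 3 control (CTL) cultures did not receive it. RTECs were obtained by collagenase digestion of kidney and passage through a mesh, with no sort for a segment described, and were grown with serum and EGF before treatment. The comparison asks how TGF-β1, a profibrotic cytokine, changes transcripts of these cells.

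Solute carriers are membrane proteins that move small molecules in or out of a cell or an organelle. In the proximal tubule, apical carriers use the inward sodium gradient to recover glucose, amino acids, phosphate and organic acids from the filtrate, and basolateral carriers pass them on to the blood or bring in organic ions for secretion. The gradient is kept by the sodium pump, and several carriers reach the membrane only with a partner subunit. Further along the nephron, Slc12a1 and Slc12a3 reabsorb sodium chloride in the thick ascending limb and the distal convoluted tubule.

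TGF-β1-treated RTECs had far fewer transcripts of Slc6a18, a neutral amino acid carrier. The glutamate carrier Slc1a1 and the anion carrier Slc17a1, both at low counts, and the glucose carrier Slc2a2 were also lower. Slc7a7, a basolateral carrier of cationic amino acids, rose. Of the 44 carriers, 21 had enough counts to be tested, and 4 of these were lower and 1 was higher at an adjusted p-value under 0.05 (edgeR quasi-likelihood test, Benjamini-Hochberg adjustment over 15862 genes). Of all genes tested, 6.69% were lower and 5% were higher. The median log2 fold change was -0.68 over the 21 carriers and -0.0028 over all genes tested. With the replicate number as a block, 11 carriers were lower and 1 was higher, against 19.1% and 15.1% of all genes. In 12 of the 21, every TGF-β1 culture lay below every CTL culture, and this held for 18% of all genes tested. Slc1a1 and Slc17a1, among the 4 that fell, and Slc5a12 reached the filter level in the 3 CTL cultures and in 0 TGF-β1 cultures, so that they entered the test only through the group where they were high. With at least 10 counts required in every library, 2 of 16 carriers were lower and 1 was higher, against 938 and 720 of 14670 genes. With 1 culture left out at a time, between 0 and 5 carriers were lower and at most 1 was higher. Without TGF-β1 replicate 1, 0 were lower (11 of 23 at an unadjusted p-value under 0.05, edgeR, against 1970 of 16201 genes). With CTL replicate 1 omitted 1 was lower, and with TGF-β1 replicate 2 omitted 2 were. DESeq2, run with no filter beyond 1 count, called 9 lower and 1 higher of 40 carriers. Over all genes it called 1499 lower and 1109 higher of 27562.

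The 6 libraries held 28313080 to 34183497 reads on genes, and the floor of 3 counts per library equals 0.0878 to 0.106 CPM (counts scaled to an equal library total), a limit that covers counting error only. Same-numbered cultures of the 2 groups deviated together from their group means, and the fit with the replicate block is therefore given beside the counts. Replicate 2 stood apart in both groups. It had 154 (CTL) and 136 (TGF-β1) CPM on 4 Y-linked genes, against at most 0.177 in the other cultures, and Xist was present in all 6 at 198 to 652 CPM, although the methods describe the mice as male. The part of cell sex in the results below was not tested. Without replicate 2 in both groups 5 carriers were lower and 1 was higher, against 8.09% and 6.79% of all genes. With the replicate block added to that fit, a setting chosen after seeing the data, 9 were lower and 1 was higher. Over all genes that setting gave 2718 lower and 2288 higher of 15955.

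Proximal tubule markers outside the list were counted at very unequal levels. Of 15 such genes, 10 had more than 3 counts in every library, including the endocytic receptor gene Lrp2, and the summed level of the 15 was 112 to 138 TPM (counts divided by exon length and scaled to an equal total in each library) in CTL and 54.7 to 71.6 TPM after TGF-β1, where 4 of the 9 tested were lower (edgeR), and 7 with the replicate block. Most of the CTL sum was Dab2 (41.8 to 56.5 TPM), Ggt1 (17.0 to 29.5), Aqp1 (11.8 to 23.8) and Lrp2 (14.6 to 17.6). Kap, a proximal tubule gene of mouse kidney, had at most 3 counts. The highest count was 6 for Acsm2, 7 for Fbp1, 8 for Miox, 12 for Amn and 14 for Pck1. Amn and Pck1 are among the 10. Of all genes tested, 6.69% were lower and 5% higher with condition only, and 19.1% and 15.1% with the replicate block. At an unadjusted p-value under 0.05 (edgeR, condition only), 2437 of 15862 genes were lower and 2092 higher. DESeq2 called 1499 lower and 1109 higher of 27562. Some markers of other kidney cells were counted as well. For 9 fibroblast markers the sum was 729 to 1519 TPM in CTL and 845 to 1743 TPM after TGF-β1. Most of that sum was 2 matrix genes. Col1a1 stood at 301 to 884 TPM in CTL and 343 to 1035 after TGF-β1, and Postn at 151 to 309 and 172 to 408. Pdgfrb stood at 48.7 to 164 TPM in CTL and Pdgfra at 0.348 to 0.591, and Tcf21 had at most 6 counts. Of the 9, 7 had more than 3 counts in every library. None of the 7 tested passed (edgeR, with 0 at an unadjusted p-value under 0.05 and 0 by DESeq2), against 2 lower and 3 higher with the replicate block. The sum of 10 collecting duct markers was 21.3 to 47.4 TPM in CTL and 60.5 to 121 TPM after TGF-β1, with 2 of 10 above 3 counts in every library. Nearly all of that sum was Hsd11b2, a steroid dehydrogenase gene, at 19.3 to 43.8 TPM in CTL and 59.7 to 119 TPM after TGF-β1, which rose (1.65 on the log2 scale, adjusted p = 0.0415, edgeR). The other tested marker, the sodium channel subunit gene Scnn1g, had a log2 value of -1.77 (adjusted p = 0.0844, edgeR) and was lower with the replicate block (adjusted p = 0.00845). Aqp2, the vasopressin-regulated water channel of the collecting duct, had at most 5 counts, and Atp6v1g3, a proton pump subunit of intercalated cells, had 0. The sum of 10 thick ascending limb and distal tubule markers was 100 to 107 TPM in CTL and 89.3 to 94.3 TPM after TGF-β1, where 0 of 5 passed (edgeR, with 3 lower at an unadjusted p-value under 0.05 and 0 by DESeq2) and 4 were lower with the replicate block. Most of that sum was Wnk1, a kinase expressed in many cells, at 84.5 to 97.9 TPM in CTL and 86.7 to 87.7 TPM after TGF-β1 (0.0070 on the log2 scale), and the other 4 tested had log2 fold changes of -1.40 to -0.96. Podocyte markers summed to 202 to 319 TPM in CTL and 162 to 182 TPM after TGF-β1, without overlap. Most of that sum was Synpo, at 153 to 225 TPM in CTL and 119 to 142 TPM after TGF-β1. Of the 3 tested 0 passed (edgeR, with 2 lower at an unadjusted p-value under 0.05) and 3 were lower with the replicate block. DESeq2, run with no filter beyond 1 count, called 1 of the whole list of 5 lower. The slit diaphragm gene Nphs1 had at most 6 counts. Leukocyte markers summed to 11.7 to 41.5 TPM in CTL and 8.98 to 34.6 TPM after TGF-β1, mostly from Lyz2. Of the 5 tested 1 fell, the macrophage receptor gene Csf1r (-1.32 on the log2 scale, adjusted p = 0.0238, edgeR). Endothelial markers summed to 2.49 to 4.32 TPM over the 6 libraries. In such bulk samples, fewer cells of a type and less RNA per cell cannot be told apart, and the part of a cell mixture in the changes below was not tested.

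The level of the carriers differed widely within the list. Per exon length, Slc7a7 was the most abundant in CTL RTECs, at 36.2 ± 4.01 TPM (SD, n = 3), followed by Slc22a5 at 24.6 ± 1.41, Slc22a18 at 22.0 ± 6.86, Slc6a18 at 18.9 ± 12.1, Slc4a4 at 18.2 ± 4.14 and Slc37a4 at 17.4 ± 1.53 TPM. From Slc22a5 to Slc37a4, neighbours in this order differed by less than the larger of their SDs. Below these 6 carriers, Slc22a4 stood at 3.67 ± 0.818 TPM and Slc5a8 at 2.60 ± 0.888 TPM, and each other carrier was under 2 TPM on average in CTL. The summed level of all 44 carriers was 165, 152 and 155 TPM in CTL and 122, 97.6 and 130 TPM after TGF-β1, so the groups did not overlap. A list of 22 carriers found in most cell types, such as the amino acid carrier Slc7a5, summed to 1298 to 1349 TPM in CTL and 1344 to 1488 TPM after TGF-β1.

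**Figure D1:**
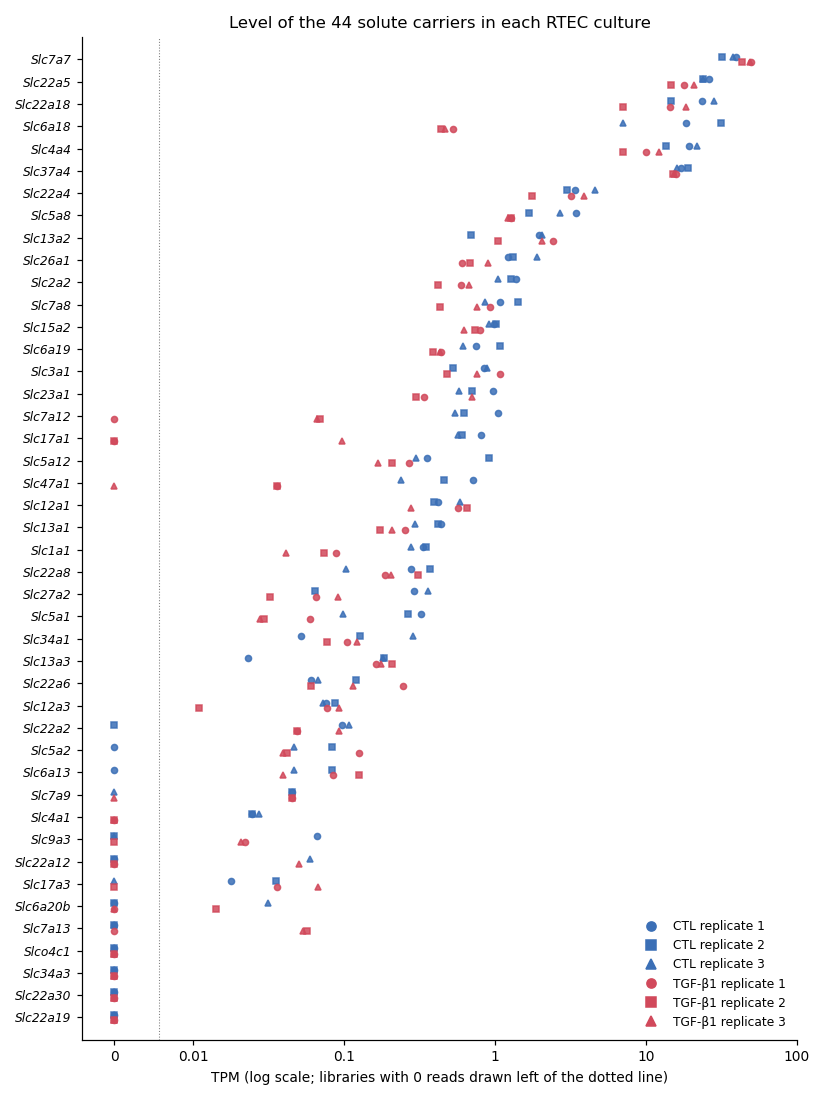
Level of each of the 44 solute carriers in each culture, in TPM on a log axis, with CTL in blue, TGF-β1 in red and 1 marker shape per replicate number. 6 carriers average above 10 TPM in CTL, Slc6a18 falls from 18.9 to 0.477 TPM on average, and many of the classical proximal carriers sit near 0 in both groups.

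Several carriers that define the proximal tubule in the kidney were scarcely counted in either group of cultures. Of the 44, 13 had at most 3 counts in every library. These were the apical glucose carrier Slc5a2, the amino acid carriers Slc6a13, Slc6a20b, Slc7a9 and Slc7a13, the phosphate carrier Slc34a3, the organic ion carriers Slc22a2, Slc22a12, Slc22a19, Slc22a30 and Slco4c1, the sodium-proton exchanger Slc9a3, and Slc4a1, the anion exchanger of intercalated cells. Slc22a19, Slc22a30, Slc34a3 and Slco4c1 had 0 counts in all 6 libraries, which allows up to 3 counts in each. Reads aligning to more than 1 place were left out of the counts by the authors, so a carrier with a close copy in the genome can be undercounted. A further 10 carriers had more than 3 counts in at least 1 library but were too low for the filter. Slc34a1, the main phosphate carrier of the proximal tubule, had 2, 5 and 10 counts in CTL and 4, 3 and 5 after TGF-β1, and Slc22a6, the basolateral carrier of organic anions, had 2, 4 and 2 in CTL and 8, 2 and 4 after TGF-β1. For Slc22a8, a second organic anion carrier, counts were 9, 12 and 3 in CTL and 6, 10 and 7 after TGF-β1. The ranges of the groups overlapped for each of these genes.

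Of the 10 low carriers, Slc47a1, Slc7a12 and Slc5a1 had lower counts in every TGF-β1 culture than in any CTL culture. Over all genes tested this held for 18%, and the share among genes too low to test was not computed. Slc47a1, an apical exporter of organic cations, had 20, 13 and 6 counts in CTL and 1, 1 and 0 after TGF-β1, a ratio of summed counts of 0.0509 (exact 95% interval 0.00595 to 0.197, for counting error only). Slc7a12, an amino acid carrier of the late proximal tubule, had 15, 9 and 7 counts in CTL and 0, 1 and 1 after TGF-β1, a ratio of 0.064 (0.00742 to 0.252). Slc5a1, the apical glucose carrier of the late proximal tubule, had 11, 9 and 3 counts in CTL and 2, 1 and 1 after TGF-β1, a ratio of 0.173 (0.0434 to 0.505). With no filter beyond 1 count, Slc47a1 and Slc7a12 passed (adjusted p = 0.0106 and 0.0121, edgeR) and Slc5a1 did not (adjusted p = 0.0689). Slc27a2, a fatty acid carrier and acyl-CoA synthetase, had 21 counts in CTL and 6 after TGF-β1 in total, with an adjusted p of 0.229 in that fit. The distal carrier Slc12a3 had 7, 8 and 6 counts in CTL and 7, 1 and 9 after TGF-β1. Slc13a3, a basolateral dicarboxylate carrier, had 16 counts in CTL and 24 after TGF-β1 in total, and Slc17a3, an apical anion carrier, had 3 and 6.

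Among the amino acid carriers, Slc6a18 fell the most. Slc6a18 (ENSMUSG00000021612.13) occupies bases 73661752 to 73678023 of chromosome 13 (GRCm38, minus strand) and encodes an apical carrier of small neutral amino acids. Its normalized counts, scaled to a common library size, were 651, 1102 and 253 in CTL replicates 1, 2 and 3 and 19.3, 16.6 and 16.9 in the same-numbered TGF-β1 cultures. The CTL cultures differed widely, with replicate 2 the highest, and the TGF-β1 cultures were nearly alike and far below all of them. The log2 fold change was -5.24 (SE, the standard error, 0.64, adjusted p = 0.00891, edgeR), and -5.16 with the replicate block (SE 0.28, adjusted p = 7.42e-05). Its adjusted p-value was 0.0538 without TGF-β1 replicate 1 and 0.0563 with limma-voom.

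Slc6a19, the principal apical carrier of neutral amino acids of the early proximal tubule, ends 1721 bp upstream of Slc6a18 on the same strand. Its normalized counts were 30.0, 43.3 and 25.1 in CTL and 18.3, 16.6 and 17.9 after TGF-β1. The groups did not overlap, but the log2 fold change of -0.90 did not pass (SE 0.26, adjusted p = 0.0796, edgeR), and it passed with the replicate block (-0.88, SE 0.26, adjusted p = 0.0301). Within same-numbered pairs the log2 ratios, TGF-β1 over CTL, were -5.08, -6.05 and -3.90 for Slc6a18 and -0.71, -1.38 and -0.49 for Slc6a19. In each pair Slc6a18 thus had the larger log2 decrease of these neighbouring genes, and in CTL both were highest in replicate 2. RefSeq promoter windows, which run from 250 bases before to 50 after a gene start, were matched for 35 of the 44 carriers. The window of Slc6a19 is shown as that of the neighbour of the gene with the largest fitted fall over all 6 cultures. It lies at chr13:73692587-73692886 on the minus strand of GRCm38.p6 and holds 0 matches to the motifs described below.
Slc6a19: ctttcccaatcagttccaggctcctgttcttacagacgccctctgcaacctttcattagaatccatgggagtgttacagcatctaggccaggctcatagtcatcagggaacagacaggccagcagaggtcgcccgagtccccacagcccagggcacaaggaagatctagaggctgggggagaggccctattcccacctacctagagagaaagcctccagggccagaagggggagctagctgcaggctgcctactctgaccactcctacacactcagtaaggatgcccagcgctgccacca

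Slc1a1, the apical carrier of glutamate and aspartate, is on chromosome 19 from 28835049 to 28913960. Its normalized counts were 22.2, 23.1 and 18.6 in CTL and 6.10, 5.18 and 2.82 after TGF-β1, with every treated culture under every CTL culture. The log2 fold change was -2.17 (SE 0.32, adjusted p = 0.0128, edgeR), and leaving out CTL replicate 1 or TGF-β1 replicate 1 ended the call (adjusted p = 0.0707 and 0.0538). Exons of Slc1a1 overlap those of 4430402I18Rik on the opposite strand, which had a log2 fold change of -0.51 (adjusted p = 0.462, edgeR), and the strand setting of the counting is not given in the sources used here.

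Slc7a7 was the single tested carrier that rose. It is the light chain of a basolateral exchanger that lets cationic amino acids leave the cell, and occupies bases 54369442 to 54417780 of chromosome 14 (minus strand). Normalized counts of Slc7a7 were 1045, 840 and 1009 in CTL and 1371, 1234 and 1330 after TGF-β1. Each treated culture was above each CTL culture, with replicate 2 the lowest of both groups. The log2 fold change was 0.44 (SE 0.10, adjusted p = 0.0356, edgeR), and 0.45 with the replicate block (SE 0.06, adjusted p = 0.000654). Leaving out any 1 culture other than CTL replicate 2 moved its adjusted p-value to between 0.0565 and 0.128, and without composition normalization it was 0.0623. Oxa1l, whose exons overlap those of Slc7a7 on the opposite strand, had a log2 fold change of -0.19 (adjusted p = 0.093, edgeR). Slc3a2 (CD98), the heavy chain that carries Slc7a7 and Slc7a8 to the basolateral membrane, rose as well, by 0.22 on the log2 scale (SE 0.05, adjusted p = 0.0422, edgeR), a call that ended with any 1 culture left out (adjusted p = 0.0633 to 0.152).

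Slc7a8, the other light chain of Slc3a2, had normalized counts of 43.5, 56.8 and 34.9 in CTL and 38.6, 18.7 and 31.0 after TGF-β1. These ranges overlapped, and its log2 fold change was -0.61 (SE 0.32, adjusted p = 0.265, edgeR). Slc3a1, the heavy chain of the apical cystine carrier, had 9.62 to 16.4 normalized counts in CTL and 9.33 to 20.3 after TGF-β1, with a log2 fold change of 0.08 (SE 0.37, adjusted p = 0.91, edgeR), and its light chain Slc7a9 had at most 1 count in any library. Exons of Slc3a1 overlap those of Prepl on the opposite strand, which had many more reads and rose by 0.32 on the log2 scale (adjusted p = 0.0188, edgeR). Slc15a2, an apical carrier of small peptides, had 54.6 to 59.7 normalized counts in CTL and 37.6 to 48.8 after TGF-β1. Its groups did not overlap, and its log2 fold change of -0.37 (SE 0.17) had adjusted p-values of 0.204 and, blocked by replicate, 0.125 (edgeR). Of the 12 amino acid and peptide carriers, 7 were tested, of which 2 fell and 1 rose, against 6.69% and 5% of all genes. Slc1a1, among the 2 that fell, reached the filter level in CTL cultures only. With the replicate block 3 fell and 1 rose, against 19.1% and 15.1%.

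Among the carriers of glucose and monocarboxylates, Slc2a2 (GLUT2), the basolateral glucose carrier of the early proximal tubule, fell. It lies on chromosome 3 from 28697903 to 28731359, and its normalized counts were 63.8, 58.7 and 49.1 in CTL and 28.5, 20.7 and 31.9 after TGF-β1. All treated cultures were below all CTL cultures. The log2 fold change was -1.08 (SE 0.22, adjusted p = 0.0318, edgeR). With 1 culture left out, it passed only without CTL replicate 3, and its adjusted p-value was otherwise between 0.0535 and 0.137. Without replicate 2 in both groups it was 0.0655, at a log2 fold change of -0.90.

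The apical lactate carriers Slc5a8 and Slc5a12 had lower counts in all treated cultures than in any CTL culture. For Slc5a8 the normalized counts were 147, 71.2 and 116 in CTL and 56.9, 58.0 and 53.6 after TGF-β1, with CTL replicate 2 closest to the treated cultures. Its log2 fold change was -0.98 (SE 0.28, adjusted p = 0.0709, edgeR), and -0.96 once blocked by replicate (adjusted p = 0.00961). Without replicate 2 in both groups it was -1.25 (adjusted p = 0.0138, edgeR, no block). For Slc5a12 the normalized counts were 11.6, 29.8 and 9.82 in CTL and 9.15, 7.26 and 5.64 after TGF-β1, and its log2 fold change of -1.22 did not pass with or without the block (adjusted p = 0.189 without it and 0.0539 with it, edgeR). Without CTL replicate 2, its highest culture, the value was -0.55. Slc37a4, the glucose 6-phosphate carrier of the endoplasmic reticulum, had 398 ± 32.6 normalized counts (SD) in 3 CTL cultures against 369 ± 7.2 in the 3 treated ones, with overlapping ranges and a log2 fold change of -0.11 (SE 0.09, adjusted p = 0.448, edgeR).

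**Figure D2:**
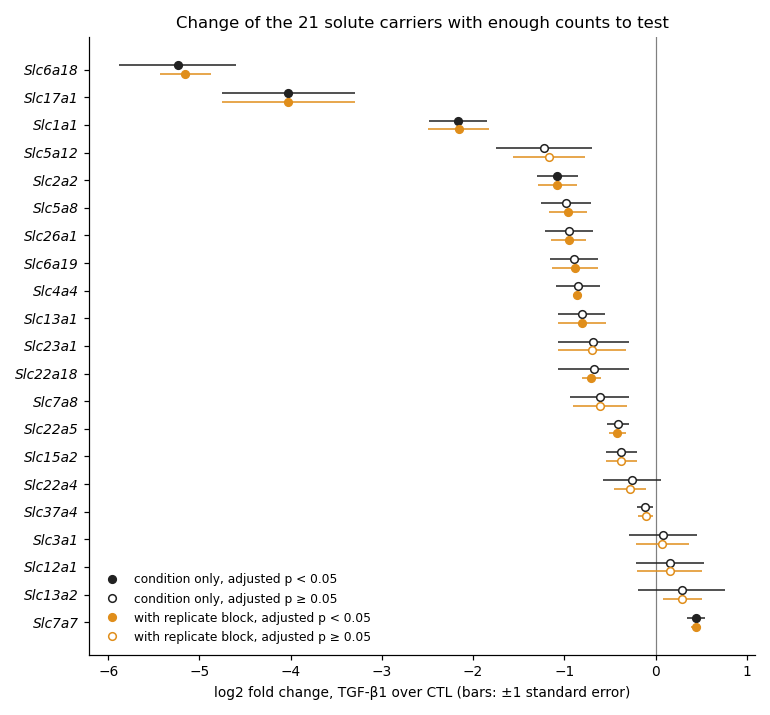
Log2 fold change of the 21 tested solute carriers, TGF-β1 over CTL, with bars of 1 standard error, from edgeR with condition only (black) and with the replicate block (orange). Filled points have an adjusted p-value under 0.05, which holds for 5 carriers with condition only and for 12 with the block. 17 of the 21 lie below 0 in both fits.

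Slc17a1, an apical carrier of phosphate, urate and other organic anions, was almost not counted after TGF-β1. It lies on chromosome 13 from 23867750 to 23895730. Its counts as deposited were 16, 12 and 10 in CTL and 0, 0 and 2 after TGF-β1, and the ratio of summed counts was 0.0522 (exact 95% interval 0.00610 to 0.202, for counting error only). The fitted log2 fold change, which at such counts depends on the prior count of the model, was -4.02 (SE 0.73, adjusted p = 0.0224, edgeR). Leaving out CTL replicate 1, TGF-β1 replicate 1 or TGF-β1 replicate 2 ended the call (adjusted p = 0.0995, 0.0842 and 0.0518). Slc17a3, whose gene lies 7033 bp away on the same strand, had 0 to 4 counts per library.

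Both sulfate carriers of the proximal tubule had lower counts in every treated culture than in any CTL culture. Slc26a1, the basolateral one, had normalized counts of 39.6, 42.3 and 62.2 in CTL and 20.3, 23.8 and 30.1 after TGF-β1. Its log2 fold change was -0.95 (SE 0.26, adjusted p = 0.0698, edgeR), and it passed with the replicate block (adjusted p = 0.00654). Exons of Slc26a1 overlap those of Idua on the opposite strand, which had a log2 fold change of -0.18 (adjusted p = 0.57, edgeR). Slc13a1, the apical sulfate carrier, had normalized counts of 27.1, 26 and 18.6 in CTL and 16.3, 11.4 and 13.2 after TGF-β1. Its log2 fold change was -0.81 (SE 0.26, adjusted p = 0.0983, edgeR), and it passed once blocked by replicate (adjusted p = 0.0478). Slc13a2, an apical carrier of citrate and other dicarboxylates, had overlapping ranges, lowest in replicate 2 of both groups, and a log2 fold change of 0.29 (SE 0.47, adjusted p = 0.742, edgeR). Its exons overlap those of the antisense gene Slc13a2os, which had -0.34 on the log2 scale (adjusted p = 0.641). Slc23a1, an apical vitamin C carrier, had 15.3 to 25.1 normalized counts in CTL and 8.29 to 18.8 after TGF-β1, and a log2 fold change of -0.68 (SE 0.39, adjusted p = 0.308, edgeR). Of the 9 dicarboxylate, sulfate, phosphate and vitamin C carriers, 5 were tested and 1 fell, against 6.69% of all genes. The carrier that fell, Slc17a1, reached the filter level in CTL cultures only. With the replicate block 3 fell, against 19.1%.

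Of the 12 organic ion, urate, carnitine and fatty acid carriers placed in 1 group here, 3 were tested. With condition only 0 passed (edgeR, with 1 lower at an unadjusted p-value under 0.05, against 2437 of 15862 genes). With the replicate block 2 fell, against 19.1% of all genes. DESeq2, run with no filter beyond 1 count, called 2 of the whole group of 12 lower, against 1499 of 27562 genes. Slc22a5, the carnitine carrier that supplies fatty acid oxidation, had normalized counts of 646, 584 and 594 in CTL and 458, 388 and 525 after TGF-β1. The groups did not overlap, and the log2 fold change was -0.41 (SE 0.12, adjusted p = 0.0805, edgeR), and it passed with the block (adjusted p = 0.00908) and with DESeq2 (0.0429). Slc22a18 had normalized counts of 318, 198 and 387 in CTL and 204, 103 and 256 after TGF-β1. Its ranges overlapped, with replicate 2 the lowest of both groups, while each same-numbered pair moved down, by log2 ratios of -0.64, -0.95 and -0.60. Its log2 fold change was -0.68 (SE 0.39, adjusted p = 0.308, edgeR), and -0.71 with the replicate block (SE 0.10, adjusted p = 0.00143). Slc22a4, a carrier of ergothioneine whose gene lies 91462 bp from Slc22a5, had overlapping ranges and a log2 fold change of -0.26 (SE 0.32, adjusted p = 0.644, edgeR).

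Among the salt and acid-base carriers, Slc4a4, the basolateral sodium bicarbonate cotransporter, had the most reads. It lies on chromosome 5 from 88886818 to 89239653. Its normalized counts were 1660, 1179 and 1906 in CTL and 894, 652 and 1078 after TGF-β1, so that the highest treated culture was below the lowest CTL culture, with replicate 2 the lowest of each group. The log2 fold change was -0.85 with an SE of 0.24 (adjusted p = 0.0755, edgeR), and -0.86 with an SE of 0.05 with the replicate block (adjusted p = 1.73e-05). The log2 ratios of the 3 pairs were -0.89, -0.85 and -0.82. Without replicate 2 in both groups the log2 fold change was -0.85 (adjusted p = 0.00941, edgeR, no block), and with DESeq2 on all 6 cultures the adjusted p-value was 0.00563.

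Slc12a1, the apical sodium potassium chloride cotransporter of the thick ascending limb, had normalized counts of 19.3, 18.3 and 27.3 in CTL and 27.4, 32.1 and 13.2 after TGF-β1. The groups overlapped, and the log2 fold change was 0.16 (SE 0.37, adjusted p = 0.818, edgeR), of either sign when cultures were left out. The antisense gene Gm14002, which overlaps the gene body of Slc12a1 but not its exons, had a log2 fold change of 1.32 (adjusted p = 0.0128, edgeR). Slc4a1 had 1, 1 and 1 counts in CTL and 0 in each treated culture, and both it and Slc12a3 were too low to be tested.

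**Figure D3:**
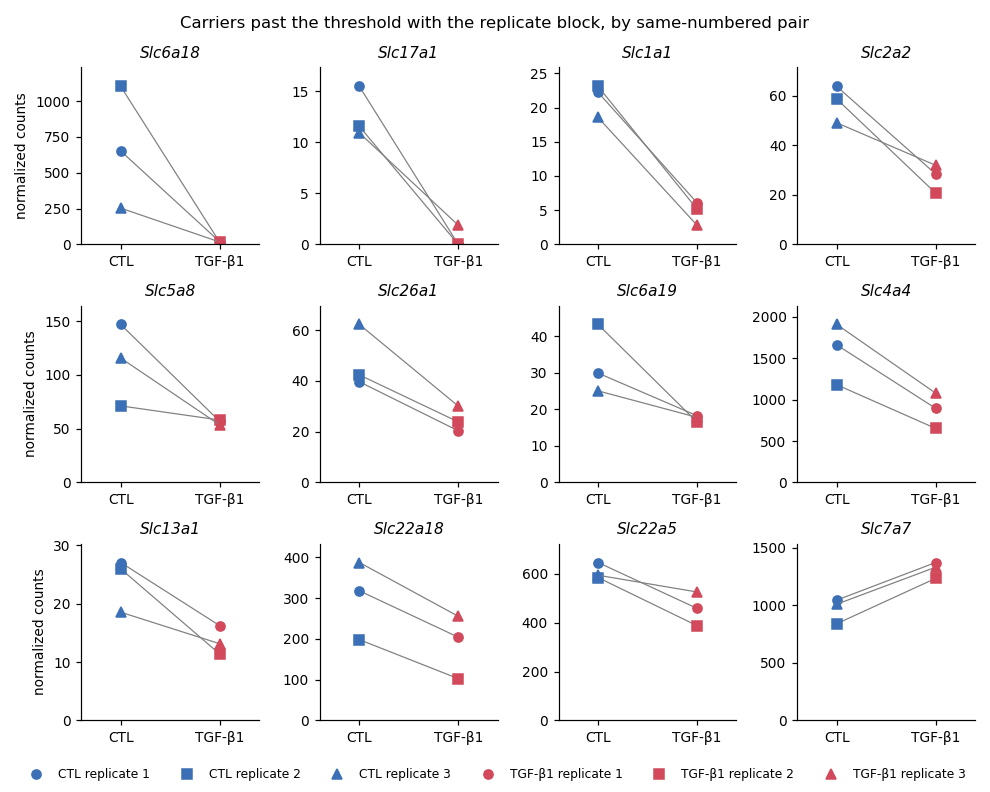
Normalized counts of the 12 carriers past the threshold with the replicate block, in CTL and TGF-β1 cultures, each panel on its own linear axis from 0 and each grey line joining cultures with the same replicate number. All 3 lines fall in the first 11 panels and rise in Slc7a7, and for Slc22a18 the groups overlap although every pair falls.

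By membrane side, 14 of the 26 apical carriers were tested, with 3 lower, and 7 lower with the replicate block, against 6.69% and 19.1% of all genes. Slc1a1 and Slc17a1, among these 3, and Slc5a12, among the 14, reached the filter level in CTL cultures only. The summed level of the apical carriers was 46.1 to 67.5 TPM in CTL and 22.6 to 32.3 TPM after TGF-β1, without overlap, and Slc6a18 made up 18.4, 31.2 and 7.07 TPM of it in CTL and 0.439 to 0.525 TPM after TGF-β1. Of the 12 basolateral carriers, 5 were tested, with 1 lower and 1 higher, against 6.69% and 5% of all genes. With the block 3 were lower and 1 was higher, against 19.1% and 15.1%. Their summed level was 50.1 to 63.6 TPM in CTL and 52.8 to 64.0 TPM after TGF-β1, with Slc7a7 as its largest part. The difference between the apical and basolateral carriers was not tested. By segment, the 9 late proximal carriers summed to 24.5, 35.1 and 11.6 TPM in CTL, mostly from Slc6a18, and to 2.75, 2.68 and 2.50 TPM after TGF-β1. Of the 4 tested, 2 fell (3 with the replicate block), against 6.69% and 19.1% of all genes. Slc1a1, among these 2, reached the filter level in CTL cultures only. The 9 early proximal carriers summed to 62.1, 50.2 and 62.4 TPM in CTL and 62.1, 52.1 and 63.3 TPM after TGF-β1, mostly from Slc7a7. Of the 6 tested 1 fell and 1 rose, against 6.69% and 5% of all genes. With the replicate block 3 fell and 1 rose, against 19.1% and 15.1%.

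Genes known as partners, scaffolds or regulators of these carriers moved in both directions. Of 32 such genes 31 were found and 23 were tested, and 7 were lower and 2 were higher (edgeR), against 6.69% and 5% of all genes, with a median log2 fold change of -0.36. With the replicate block 16 were lower and 4 were higher, against 19.1% and 15.1% of all genes. Cltrn (collectrin), the partner of Slc6a18 and Slc6a19 in the kidney, had at most 13 counts and was not tested. It stood at 0.610 to 1.02 TPM in CTL and 0 to 0.158 TPM after TGF-β1, without overlap. Pdzk1ip1 (MAP17), a small membrane protein that activates Slc5a2, fell by 1.6 on the log2 scale (SE 0.20, adjusted p = 0.00964, edgeR). Atp1b1, the beta subunit of the sodium pump, fell by 1.18 (SE 0.26, adjusted p = 0.0418, edgeR).

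Wnk4, a kinase that controls Slc12a3, fell by 0.98 on the log2 scale (SE 0.10, adjusted p = 0.00501, edgeR), Nedd4l, a ubiquitin ligase, fell by 0.74 (adjusted p = 0.0173) and Oxsr1, a kinase downstream of the WNK kinases, fell by 0.21 (adjusted p = 0.031). Sgk1, a kinase of sodium transport, had a log2 value of 0.79 (adjusted p = 0.101, edgeR) and was higher with the replicate block (adjusted p = 3.5e-05), and Wnk1 is described above. Car2, the cytosolic carbonic anhydrase, fell by 0.83 (SE 0.18, adjusted p = 0.0355, edgeR), and Pth1r, the parathyroid hormone receptor, rose by 0.46 (SE 0.09, adjusted p = 0.0256, edgeR). The nephron transcription factor gene Hnf4a did not pass with condition only, at a log2 value of -1.53 (SE 0.40, adjusted p = 0.0591, edgeR), and passed with the replicate block (adjusted p = 0.00448). With 1 culture left out, Wnk4 passed in 6 of 6 fits, Pdzk1ip1 in 5, Nedd4l in 4, Atp1b1 in 2, Car2 and Oxsr1 in 1 each, and Pth1r in 0 (adjusted p = 0.0529 to 0.122).

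The carriers found in most cell types were all tested. Of these 22, 2 were lower and 2 were higher (edgeR), against 6.69% and 5% of all genes, with a median log2 fold change of 0.0018. With the replicate block 5 were lower and 9 were higher, against 19.1% and 15.1%. Slc7a5, the large neutral amino acid carrier that also pairs with Slc3a2, rose by 0.40 on the log2 scale (SE 0.07, adjusted p = 0.017, edgeR), and the phosphate carrier Slc20a1 rose by 0.88 (SE 0.21, adjusted p = 0.0484). Its relative Slc20a2 fell by 0.49 (SE 0.08, adjusted p = 0.0161, edgeR), and the zinc exporter Slc30a1 fell by 0.54 (SE 0.06, adjusted p = 0.00698). With 1 culture left out, Slc30a1 passed in 6 of 6 fits, Slc7a5 and Slc20a2 in 4 each and Slc20a1 in 1. The files held 350 other genes with a symbol beginning with Slc and a digit or with Slco. They include these 22 and Slc3a2, and also genes that are not carriers, such as the partner genes Slc9a3r1 and Slc9a3r2 and the pseudogene Slc25a5-ps. Of the 350, 241 were tested. Of these 241, 19 (7.88%) were lower and 14 (5.81%) were higher, and their median log2 fold change was -0.072. Of the 21 tubule carriers, 4 (19%) were lower and 1 (4.76%) was higher. Slc1a1 and Slc17a1, among these 4, reached the filter level in CTL cultures only. With at least 10 counts required in every library, 2 of 16 tubule carriers were lower, beside 18 of 223 of the other genes. With the replicate block 71 (29.5%) and 38 (15.8%) of the 241 passed, beside 11 (52.4%) and 1 of the 21. No test of the difference between these lists was made.

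Promoter windows were searched on both strands for letters bound by factors of the tubule and of TGF-β1 signalling. GTTAAT, the core site of the hepatocyte nuclear factor HNF1, was found in 6 of the 35 carriers with a window (17.1%) and in 8.24% of all 27025 genes in the table. The longer HNF1 motif GTTAATNAT, which contains that core site, was found in 0 of the 35 and in 0.94% of all genes, and with 1 mismatch allowed in 15 of the 35 (42.9%) and in 15% of all genes. CAAAGTCCA, an HNF4 motif, was found in the window of Slc3a1 only among the carriers (2.86%) and in 0.555% of all genes. GTCTAGAC, a SMAD motif, was found in 0 carriers and in 0.248% of all genes. A match is a description of the letters and not evidence of binding.

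The window of Slc7a7 that holds the core site is shown whole, as that of the carrier that rose. It is 1 of 5 windows of this gene and lies at chr14:54409423-54409722 on the minus strand. Shorter stretches are shown for the other 5 carriers with a core site, chosen after their matches were seen, because these genes were low or scarcely counted in the cultures. Capitals mark the core site on either strand, so that ATTAAC is the core site read on the other strand. All are from RefSeq on GRCm38.p6 and run 5′ to 3′ along the gene, and the shorter ones lie on the plus strand at chr13:55399532-55399619 for Slc34a1, chr19:8617913-8617972 for Slc22a6, chr19:8593074-8593133 for Slc22a8, chr17:85028321-85028380 for Slc3a1 and chr6:121300645-121300704 for Slc6a13.
Slc7a7: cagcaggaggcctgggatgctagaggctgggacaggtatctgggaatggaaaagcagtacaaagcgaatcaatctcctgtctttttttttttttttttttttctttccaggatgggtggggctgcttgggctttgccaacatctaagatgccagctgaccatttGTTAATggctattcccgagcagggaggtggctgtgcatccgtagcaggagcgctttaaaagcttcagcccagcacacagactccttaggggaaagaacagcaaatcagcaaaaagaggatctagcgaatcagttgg
Slc34a1: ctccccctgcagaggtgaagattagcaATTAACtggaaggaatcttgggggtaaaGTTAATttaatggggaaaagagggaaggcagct
Slc22a6: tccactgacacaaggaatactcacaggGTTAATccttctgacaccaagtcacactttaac
Slc22a8: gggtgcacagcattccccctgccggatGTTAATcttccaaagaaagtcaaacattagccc
Slc3a1: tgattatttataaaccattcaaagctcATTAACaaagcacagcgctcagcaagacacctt
Slc6a13: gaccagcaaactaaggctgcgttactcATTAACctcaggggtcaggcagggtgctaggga

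Slc22a6 and Slc22a8, which lie 6203 bp apart on the same strand, each hold the core site within 100 bases before the start, and Slc34a1 holds it there on both strands. Counts per library were 2 to 10 for Slc34a1, 2 to 8 for Slc22a6 and 3 to 12 for Slc22a8. Of the 4 carriers that fell with condition only, Slc1a1, Slc2a2 and Slc17a1 had a window, and 0 of these 3 held the core site.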

How the data were processed

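RNA of 6 cultures (100 ng each, per the labels) was sequenced by the authors, and reads were trimmed with Trim Galore, aligned to GRCm38 with STAR 2.4.1d and counted per gene with HTSeq 0.6.1, per the submitters' processing notes. The authors deposited raw read counts, 1 table per culture, and 5 summary lines that name no gene were left out here. Reads not assigned to a gene were 25.4% to 25.9%, and the annotation release and strand setting are not given in the sources used here. Symbols, positions and exon lengths came from GENCODE M21 (46005 of 46517 gene IDs matched).

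Genes passing edgeR's filterByExpr (about 0.313 CPM in 3 libraries) were normalized by TMM and tested with the quasi-likelihood test (edgeR 4.0.16, limma 3.58.1, R 4.3.3) with condition only, with Benjamini-Hochberg adjustment over all genes tested. Fold changes are TGF-β1 over CTL. TPM was computed from counts and exon lengths. Fits were tested on simulated data. Alternatives were DESeq2 1.42.0, limma-voom, other normalizations, filters and thresholds, cultures left out, and the replicate number as a block. Over genes, deviations from the group means had correlations of 0.34, 0.684 and 0.572 for cultures sharing a number and of -0.617 to 0.215 for the rest, so the numbers were taken to pair the cultures. This pairing comes from the counts, since no source used here states it. The labels do not say whether replicates came from separate animals, so p-values measure the spread between these cultures only. Counting intervals cover counting error only, since no molecular identifiers were used.

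The members and gene lists were chosen with earlier results of these data known. All 44 members were accounted for, with a value per library for those past the threshold, the most abundant and the carriers of other segments. Of the partner lists, each gene past the threshold and at most 4 others were named, except that some genes of the partner and marker lists are counted but not reported by name here, and promoters were printed for the largest rise and the neighbour of the largest fall. Figures were drawn with matplotlib 3.10.9.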

Additional observations from a re-analysis of the deposited data

How the results depend on the processing

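The median log2 fold change of the tested carriers was below 0 under every alternative run, and RLE normalization changed no call of a named carrier. Depth limits the 23 carriers that could not be tested. Against 4 lower and 1 higher of 21, carriers called lower and higher were 9 and 1 of 40 with DESeq2. With no filter beyond 1 count they were 7 and 1 of 40, against 1001 and 739 of 27562 genes. They were 2 and 1 of 16 with at least 10 counts in every library, against 938 and 720 of 14670 genes. Carriers called were 4 and 0 with library size only, and 1 and 0 at an adjusted p under 0.01. They were 11 and 1 with the replicate block, and 9 and 1 with the block without replicate 2, a setting chosen after seeing the data. With 1 culture left out they were 0 to 5 and 0 to 1, and without replicate 1, 2 or 3 in both groups 0 to 5 and 0 to 1. The cause of these shifts was not tested.

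Over all genes, 1061 and 793 became 3037 and 2388 with the block, 2718 and 2288 with the block without replicate 2, 192 and 127 at 0.01, 508 higher with library size only (1467 lower), 186 to 807 and 109 to 516 with 1 culture left out, and 0 to 1290 and 0 to 1084 without 1 replicate number (190 and 95 without replicate 3). With library size only, the split thus moved toward lower calls. For the other Slc and Slco genes, 19 and 14 of 241 became 31 lower of 330 with DESeq2 and 7 higher with library size only. They became 71 and 38 with the block, 68 and 37 with the block without replicate 2, and 5 and 1 at 0.01. With 1 culture left out they were 5 to 15 and 1 to 10, and without 1 replicate number 0 to 32 and 0 to 16. For partners and regulators, 7 and 2 became 1 higher with library size only, 16 and 4 with the block, 15 and 4 with the block without replicate 2, 3 and 0 at 0.01, 2 to 6 and 0 with 1 culture left out, and 0 to 9 and 0 to 3 without 1 replicate number. For carriers of most cell types, 2 and 2 became 1 higher with library size only, 1 higher with at least 10 counts, 1 higher with limma-voom, 5 and 9 with the block, 6 and 9 with the block without replicate 2, 1 and 0 at 0.01, 1 to 2 and 0 to 3 with 1 culture left out, and 0 to 4 and 0 to 5 without 1 replicate number.

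Carriers that did not pass changed sign in a few fits. The log2 fold change of Slc3a1 was -0.22 to 0.31 with 1 culture left out, below 0 without CTL replicate 2 (-0.12) or TGF-β1 replicate 1 (-0.22), and -0.13 lacking replicate 1 of both groups. That of Slc13a2 was -0.073 to 0.55 with 1 culture left out, below 0 without CTL replicate 2. That of Slc12a1 was -0.099 to 0.47 with 1 culture left out, below 0 without TGF-β1 replicate 2. It was -0.013 lacking replicate 1 of both groups and -0.20 lacking replicate 2 of both, with or without the block.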

Other observations

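Among the solute carriers outside the list, chosen after their values were seen, Slc34a2, a sodium phosphate carrier, fell from 2176 to 459 normalized counts on average, -2.24 on the log2 scale (SE, the standard error, 0.44, adjusted p = 0.0296, edgeR). The organic anion carriers Slco1a6 and Slco1a5 fell, with log2 fold changes of -2.72 and -1.63 (adjusted p = 0.00417 and 0.0111, edgeR), and the anion carrier Slc26a7 fell by 2.41 (adjusted p = 0.00698). The creatine carrier Slc6a8 rose from 6458 to 9118 normalized counts, by 0.50 on the log2 scale (SE 0.07, adjusted p = 0.0109, edgeR), and Slc16a11 of the monocarboxylate carrier family rose by 0.99 (adjusted p = 0.00812).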
